A study of Mus musculus with 14 samples.

Results

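The genes described here are 10 regulators of the neuronal cytoskeleton: *Map1a*, *Map1b*, *Map2*, *Mapt*, *Dcx*, *Stmn1*, *Stmn2*, *Stmn3*, *Stmn4* and *Gap43*. They were chosen by symbol, through the RefSeq identifiers of the expression tables, and all 10 were found among the 23152 loci listed. The series asks what the TAF9B subunit does in neurons, and it holds poly-A RNA-seq of mouse embryonic stem (ES) cells, of embryoid bodies (EBs) differentiated towards motor neurons and of newborn tissue, with ChIP-seq for TAF9B and RNA POL2. There are 11 RNA-seq libraries, 1 per condition, so that no value below has a replicate, an error or a test.

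Microtubules are the tracks along which neurons send cargo, and their growth and stability shape axons and dendrites. Structural microtubule-associated proteins such as MAP1A, MAP1B, MAP2 and tau bind the lattice and stabilise it, doublecortin does so in migrating neurons, and the stathmins act in the opposite sense by sequestering tubulin dimers and favouring disassembly. GAP43 is a membrane protein of the growth cone, the motile tip in which microtubules and actin meet, and most of these proteins are abundant in developing neurons, MAP1A more so in mature ones.

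All samples have the C57BL/6 background. The cultures came from JM8 ES cells, the wild type (WT), and from a single *Taf9b* knockout (KO) clone, Taf9b_BG10, with the genotype TAF9B -/-, in which a LacZ-Neo cassette takes the place of the coding exons. ES cells were grown on fibroblast feeders, and EBs were treated with retinoic acid and a smoothened agonist and sampled at day 2, at day 4 (labelled neuronal progenitors) and at day 6 (labelled motor neuron). The tissue libraries are whole lumbar spinal column, with the non-neuronal tissue around the cord, of newborn WT and *Taf9b* KO littermates, and spinal cord of newborn WT mice. The labels name the JM8 and Taf9b_BG10 clones for the tissues as well. ChIP used EBs with motor neurons from the WT line HBG3, which carries a GFP reporter driven by the *Mnx1* promoter. These EBs were of another line and had been differentiated for longer than the day 6 EBs of the RNA-seq, so that line and stage differ wherever peaks stand beside day 6 values.

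*Taf9b* itself does not follow the labels in the cultures. Its level was 0.537, 0.516, 1.96 and 1.37 FPKM (fragments mapped to a gene, scaled to transcript length and library size) in the libraries labelled WT of ES cells and EBs at days 2, 4 and 6, and 3.06, 4.08, 4.27 and 4.01 FPKM in those labelled KO. In spinal column it was lower in the KO library, at 3.31 against 6.65 FPKM. Every direction below therefore refers to the library labelled KO against the library labelled WT. Whether culture libraries were exchanged, or fragments came from exons left in the allele, was not tested. The neuron content markers summed to 135 FPKM under the KO label and 913 FPKM under the WT label at day 6, and the ES cell markers to 866 and 114 FPKM at day 4. The tables hold no counts. In 6 of the 11 libraries the lowest values lay on a step of FPKM times kilobases between 0.00875 and 0.0312, a step that, if it is 1 fragment, puts their totals between 32 and 114 M fragments, and for the others the depth is unknown.

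All 10 genes were highest in neural tissue or in day 6 EBs labelled WT. In spinal cord 9 of them had their highest level of the 11 libraries, and the exception was *Stmn1*, which peaked at 999.7 FPKM in day 6 EBs labelled WT. Together they made up 0.767% of all FPKM in spinal cord, 0.261% in the spinal column labelled WT and 0.0631% in the ES cells labelled WT. FPKM is a level per transcript length, but the spinal column libraries differ in how values run with length, so that levels of short and long genes are compared only roughly. In spinal cord the order from high to low was *Stmn1*, *Gap43*, *Stmn3*, *Stmn2*, *Mapt*, *Stmn4*, *Map2*, *Map1b*, *Dcx* and *Map1a*, and with 1 library no spread can be given to neighbours in that order.

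**Figure D1:**
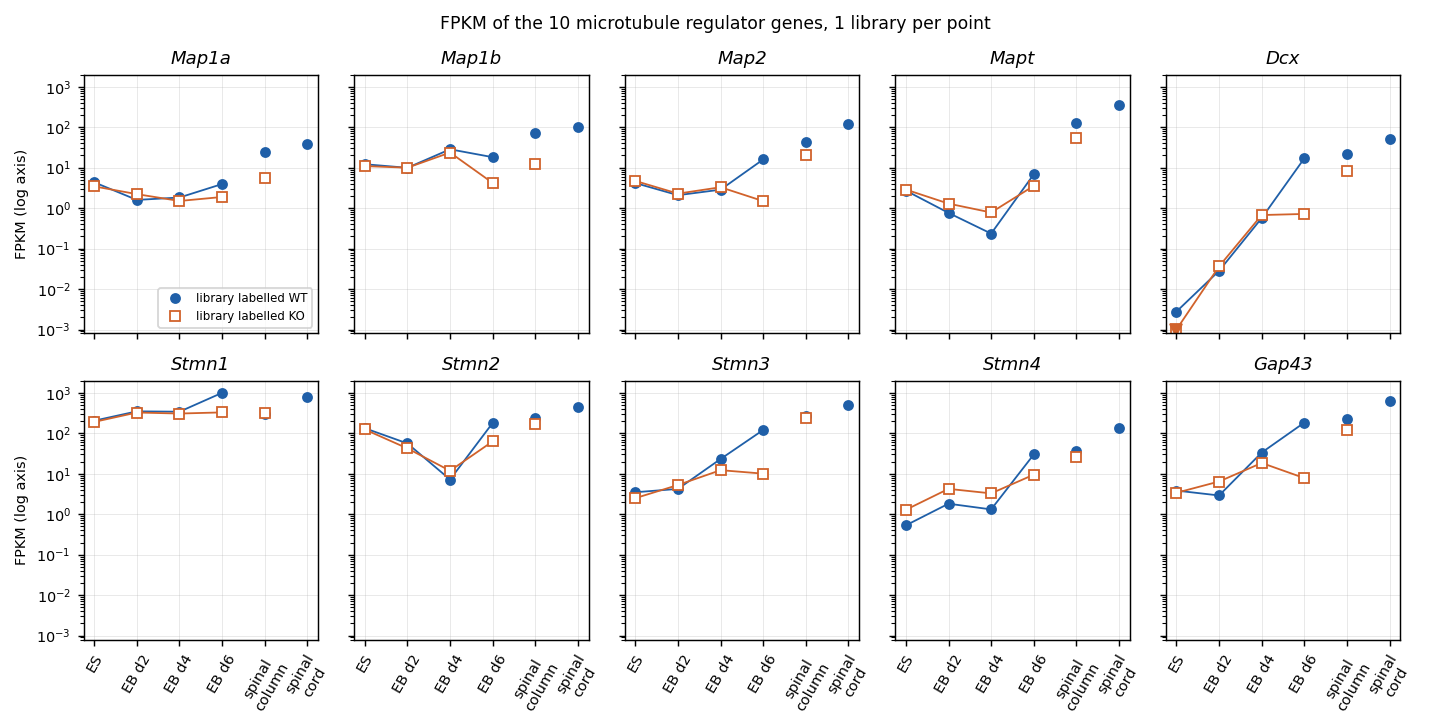
FPKM of each of the 10 genes (log axis) in ES cells, EBs at days 2, 4 and 6, newborn spinal column and newborn spinal cord, with 1 library per point. Filled circles are libraries labelled WT and open squares those labelled KO, lines join the cultures, and the triangle marks *Dcx* in the ES cell library labelled KO, drawn at the lower edge. The lines part at day 6, where the library labelled WT is the higher for all 10 genes.

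The structural microtubule-associated proteins were low in ES cells and reached their peak in tissue. *Map1b* (chr13:100191419-100286557, mm9, minus strand), whose protein is the earliest of the family in growing axons, was the highest of the 4 in undifferentiated cells. It stood at 12.2, 9.92, 28.4 and 18.2 FPKM in the libraries labelled WT of ES cells and EBs at days 2, 4 and 6, and at 10.9, 9.97, 23.6 and 4.19 FPKM in those labelled KO. Its tissue levels were 70.1 FPKM in the spinal column labelled WT, 12.3 FPKM in that labelled KO and 98.8 FPKM in spinal cord. Within each culture course the *Map1b* maximum was at day 4, and the values of both courses lay close together until then.

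*Map1a* (chr2:121115338-121176749, plus strand), the related protein of mature neurons, stayed under 5 FPKM in every culture. Its levels in the WT-labelled course were 4.35, 1.60, 1.83 and 3.94 FPKM, and in the KO-labelled course 3.45, 2.22, 1.504 and 1.89 FPKM. The tissues had 24.9 FPKM in the spinal column labelled WT, 5.43 FPKM in that labelled KO and 37.8 FPKM in spinal cord. Its locus in the tables shares its span with another gene, which is listed in its own row, so that the *Map1a* values may hold fragments of both.

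*Map2* (chr1:66221903-66489157, plus strand) encodes the main microtubule-associated protein of dendrites. In the cultures labelled WT it was at 4.17, 2.09, 2.86 and 16.0 FPKM, and in those labelled KO at 4.70, 2.28, 3.28 and 1.49 FPKM. Spinal column had 42.3 FPKM in the library labelled WT and 20.6 FPKM in that labelled KO, against 121 FPKM in spinal cord. Day 6 stands above the earlier stages in the WT-labelled course, while in the other course it is the lowest point.

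*Mapt* (chr11:104092750-104193407, plus strand), the gene of the axonal protein tau, was lowest at day 4. It was at 2.71, 0.763, 0.235 and 6.86 FPKM over the course labelled WT and at 2.87, 1.29, 0.781 and 3.55 FPKM over the course labelled KO. Its tissue levels were far above those of the cultures, at 126 FPKM in the spinal column labelled WT, 54.2 FPKM in that labelled KO and 348 FPKM in spinal cord.

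*Dcx* (chrX:140290385-140367762, minus strand), which encodes doublecortin, was the only gene near 0 in ES cells. Its 0.00277 FPKM in the ES cells labelled WT would be 1.34 fragments by that step, and the library labelled KO had 3.34e-05 FPKM, so that no ratio is given for ES cells. The EB libraries labelled WT had 0.0282, 0.568 and 17.0 FPKM at days 2, 4 and 6, and those labelled KO had 0.0364, 0.675 and 0.719 FPKM. The 2 courses ran side by side up to day 4 and were more than 20-fold apart at day 6 (23.7-fold). Spinal column had 21.3 FPKM in the library labelled WT and 8.05 FPKM in that labelled KO, with the authors' status FAIL for this gene in that table, and spinal cord had 51.8 FPKM.

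The stathmins were of 2 kinds, those with high and those with low levels in ES cells. *Stmn1* (chr4:134024235-134029758, plus strand) encodes the stathmin that dividing cells use as well. Its levels were 205, 348, 341 and 999.7 FPKM in the cultures labelled WT and 191, 326, 307 and 328 FPKM in those labelled KO. Spinal column had 307 FPKM in the library labelled WT and 322 FPKM in that labelled KO, against 783 FPKM in spinal cord. *Stmn1* was the highest of the 10 genes in every one of the 11 libraries and supplied from 22.6% to 81.5% of their summed FPKM.

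*Stmn2* (chr3:8509527-8561604, plus strand), the gene of the growth cone stathmin SCG10, ran through a trough. It was at 133, 56.1, 7.19 and 180.3 FPKM over the WT-labelled course and at 124, 42.3, 11.8 and 63.1 FPKM over the KO-labelled course. In spinal column it was at 236 and 169.9 FPKM in the libraries labelled WT and KO, and in spinal cord at 455 FPKM. Day 4 was the lowest point of both courses, and the WT-labelled libraries show the 8 ES cell markers (*Pou5f1*, *Nanog*, *Klf4*, *Esrrb*, *Zfp42*, *Dppa5a*, *Tdgf1* and *Utf1*) going from a summed 6022 to 114 FPKM, and back to 1486 FPKM at day 6. Their part in the *Stmn2* values was not tested.

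*Stmn3* (chr2:181041164-181049205, minus strand), the neuronal stathmin SCLIP, was at 3.49, 4.22, 23.1 and 121 FPKM in the cultures labelled WT. In those labelled KO it was at 2.49, 5.27, 12.3 and 10.1 FPKM. The spinal column libraries labelled WT and KO held 268 and 244 FPKM, and spinal cord 493 FPKM. At day 4 *Stmn3* was already well above its ES cell level in both courses.

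*Stmn4* (chr14:66963212-66980517, plus strand), a neuronal stathmin also called RB3, was at 0.531, 1.82, 1.32 and 29.9 FPKM in the cultures labelled WT. In those labelled KO it was at 1.29, 4.23, 3.27 and 9.50 FPKM. Spinal column had 36.9 and 25.3 FPKM in the libraries labelled WT and KO, and spinal cord had 136 FPKM. In the first 3 stages its KO-labelled value was more than 2-fold the WT-labelled one each time, and at day 6 the order was the other way round. With 1 FPKM added to both values, the log2 ratios of the first 3 stages came to 0.58, 0.89 and 0.88, within 2-fold.

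*Gap43* (chr16:42248674-42340764, minus strand) was at 3.84, 2.91, 33.3 and 184 FPKM over the WT-labelled course. The KO-labelled course had 3.39, 6.43, 18.5 and 7.82 FPKM, so that day 4 was its maximum. Spinal column had 227 FPKM in the library labelled WT and 124 FPKM in that labelled KO, and spinal cord had 628 FPKM, the second highest level of the 10 there.

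The following ratios between stages compare libraries from separately normalised tables and share libraries with each other. From ES cells to day 6, 7 of the 10 genes were more than 2-fold higher in the cultures labelled WT, where 23.1% of all genes above 1 FPKM in either library were. The median log2 ratio of the 10 was 2.11 beside 0.20 for all genes. In the cultures labelled KO 3 of the 10 were more than 2-fold higher (*Stmn3*, *Stmn4* and *Gap43*; 16.9% of all genes) and 2 were lower (*Map1b* and *Map2*; 9.55%), with a median of 0.54 beside 0.15. From ES cells to day 2, 3 of the 10 were lower and 1 higher in the WT-labelled course (7.96% and 5.27% of all genes), and 3 lower and 2 higher in the KO-labelled one (8.38% and 6.01%). From day 2 to day 4 the counts were 1 lower and 3 higher in each course, where 13.7% and 15.7% of all genes were so with the WT label and 7.74% and 15.4% with the KO label. The 3 higher genes were *Map1b*, *Stmn3* and *Gap43* in both courses, and the lower one was *Stmn2*. The courses parted between days 4 and 6. In the WT-labelled step 9 of the 10 genes were more than 2-fold higher (17% of all genes), the largest ratios being those of *Dcx* at 29.9-fold, *Mapt* at 29.2-fold and *Stmn2* at 25.1-fold, while *Map1b* was at 0.64 of its day 4 level. In the same step of the KO-labelled course 3 were more than 2-fold higher (*Mapt*, *Stmn2* and *Stmn4*; 12.4%) and 3 lower (*Map1b*, *Map2* and *Gap43*; 11.1%).

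The libraries labelled KO and WT were then compared at each stage. In ES cells the 10 genes had a median log2 ratio of KO over WT of -0.13, *Dcx* counted as listed, beside 0.02 for 12032 genes above 1 FPKM. Of the 10, 1 was more than 2-fold higher (*Stmn4*, where 0.54% of all genes were) and 0 were lower (0.59% of all genes). The 4 structural microtubule-associated protein genes lay between -0.34 for *Map1a* and 0.17 for *Map2*. At day 2 the median was 0.34 beside 0.00 for all genes, with 2 genes more than 2-fold higher (1.19% of all genes), *Stmn4* at 2.33-fold and *Gap43* at 2.21-fold, and 0 lower (1.4%). *Map1b* had a log2 ratio of 0.01 there, at 9.92 and 9.97 FPKM.

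At day 4 the 10 genes were spread to both sides. Their median log2 ratio was 0.02, with 1 gene more than 2-fold higher (*Stmn4*; 12.1% of all genes) and 0 lower (4.46%). *Stmn3* and *Gap43* were at 0.53 and 0.55 of the WT-labelled level, and *Stmn2* was at 1.65-fold. *Mapt* had 3.32-fold more in the library labelled KO but lay under 1 FPKM in both. The ES cell markers differed more at this stage, with 8 of 8 more than 2-fold higher in the library labelled KO and a sum of 866 against 114 FPKM.

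At day 6 the KO-labelled value was the lower one for all 10 genes, and for 9 of them by more than 2-fold, where 9.93% of 13006 genes were. The median log2 ratio of the 10 was -1.89 and that of all genes 0.00. *Dcx*, *Gap43*, *Stmn3* and *Map2* stood furthest apart, at 23.7-fold, 23.5-fold, 12.0-fold and 10.7-fold lower. *Map1b* was 4.33-fold lower, *Stmn4* 3.15-fold, *Stmn1* 3.05-fold, *Stmn2* 2.86-fold and *Map1a* 2.09-fold, and *Mapt* lay just short of the limit at 1.93-fold.

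**Figure D2:**
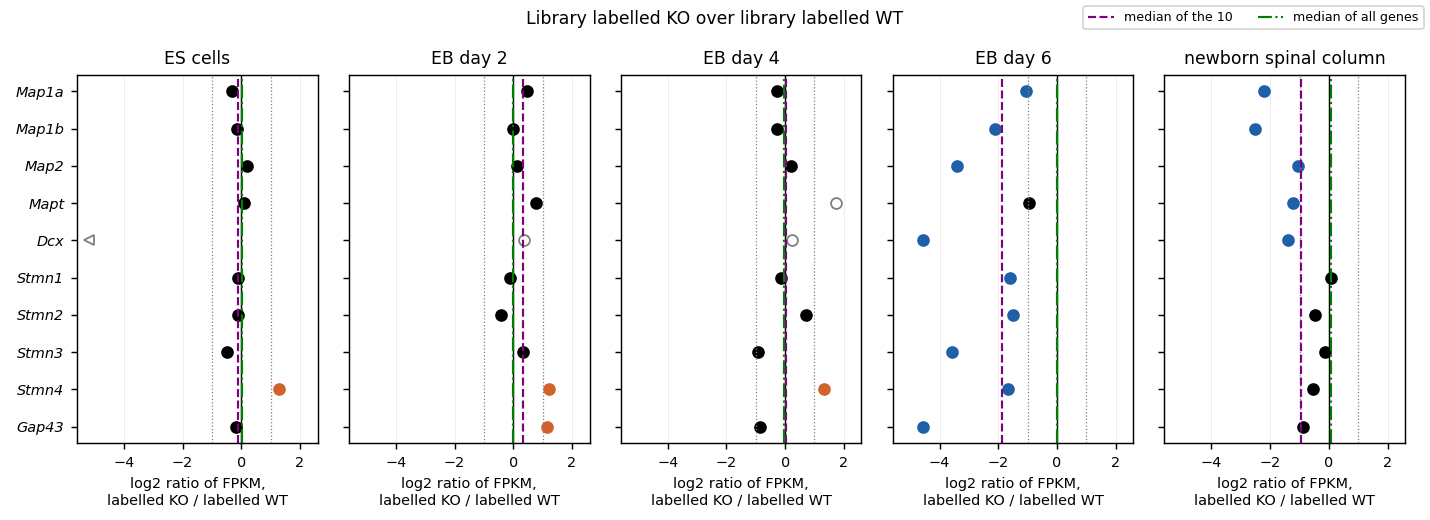
Log2 ratio of FPKM, library labelled KO over library labelled WT, of the 10 genes in 5 comparisons. Blue and orange points are more than 2-fold lower or higher, black points are neither, open grey points have no more than 1 FPKM in both libraries (the triangle, *Dcx* in ES cells, lies off the axis), dotted lines mark 2-fold, and the dashed and dash-dotted lines are the medians of the 10 genes and of all genes. The 10 genes lie to the left of 0 at day 6, with a median of -1.89.

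The neuron content markers moved with them. Of 9 such genes found (*Snap25*, *Syt1*, *Elavl3*, *Elavl4*, *Rbfox3*, *Tubb3*, *Syp*, *Uchl1* and *Celf4*), 9 were more than 2-fold lower at day 6, with a median log2 ratio of -3.69 and a summed level of 135 against 913 FPKM. At the level of bulk libraries, fewer neurons and less of these transcripts per neuron cannot be told apart. Of the 8 ES cell markers 7 were more than 2-fold higher in the library labelled KO (10.5% of all genes), with a sum of 4304 against 1486 FPKM, and their part in the result was not tested. The spread among the 10 genes was wide, from -0.95 for *Mapt* to -4.56 for *Dcx*, and it did not follow transcript length (Spearman's rho 0.04 over the 10 genes and 0.04 over 12636 genes).

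In newborn spinal column the KO-labelled value was the lower one for 9 of the 10 genes, and for 5 of them by more than 2-fold, where 8.54% of 14255 genes were. These 5 were *Map1b* at 5.70-fold lower, *Map1a* at 4.58-fold, *Dcx* at 2.64-fold, *Mapt* at 2.32-fold and *Map2* at 2.05-fold. The other 5 were within 2-fold, from *Gap43* at 1.84-fold lower to *Stmn1*, which was at 1.05-fold of the WT level. The median log2 ratio of the 10 was -0.96 beside 0.06 for all genes.

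The 5 genes past 2-fold are the 5 with the longest transcripts. The longest coding transcript of *Map1b* has 11.9 kb, of *Map1a* 11.8 kb, of *Dcx* 9.07 kb, of *Map2* 6.26 kb and of *Mapt* 5.25 kb, while *Stmn2* has 1.90 kb, *Gap43* 1.42 kb, *Stmn4* 1.36 kb, *Stmn3* 1.14 kb and *Stmn1* 1.06 kb. In this comparison the log2 ratio came down with length across the whole table, with a Spearman's rho of -0.59 over 13819 genes, and of -0.95 over the 10. These are correlations across genes of the same 2 libraries, and genes are not independent replicates. All genes up to 1000 bases long had a median log2 ratio of 0.86, those over 8000 bases one of -0.96, and 45.9% of the latter were more than 2-fold lower. The same rho lay between -0.14 and 0.06 in the 4 culture comparisons.

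**Figure D3:**
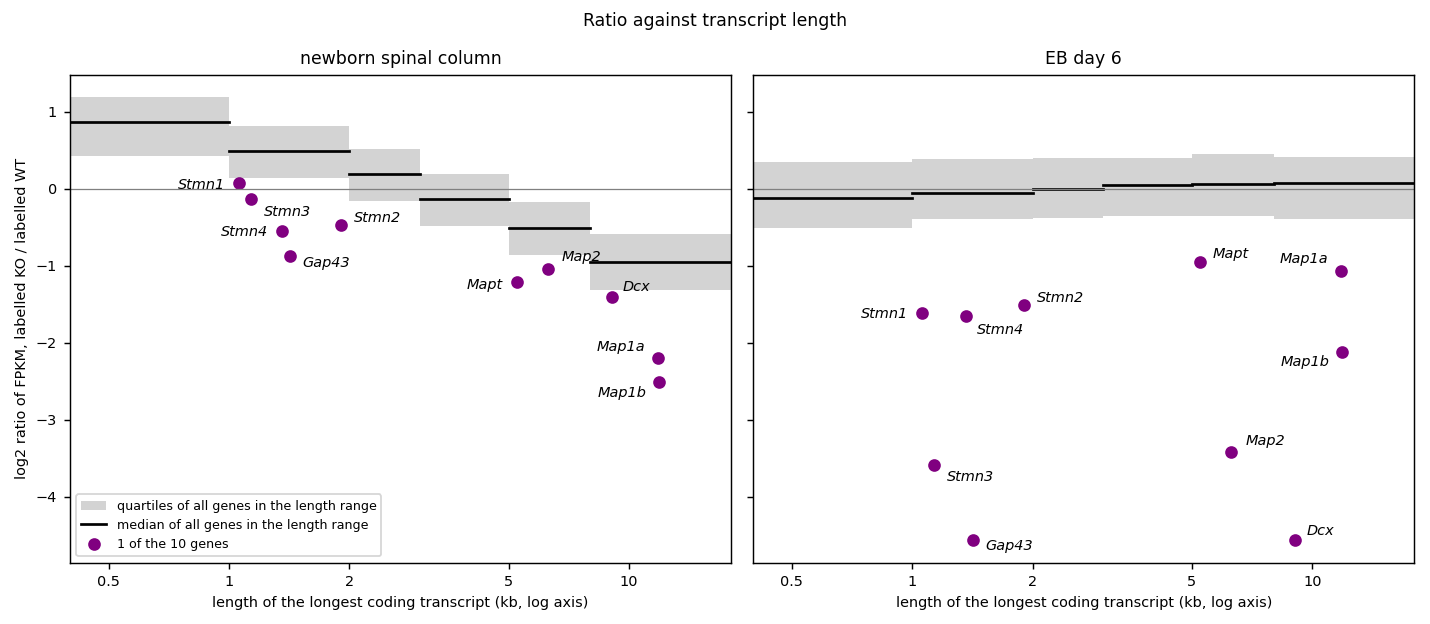
Log2 ratio of FPKM, library labelled KO over library labelled WT, against transcript length (log axis) in newborn spinal column and in day 6 EBs. Black bars and grey boxes are the median and quartiles of all genes above 1 FPKM in each length range, and purple points are the 10 genes. In spinal column the boxes descend from short to long transcripts and the 10 genes run below them, while at day 6 the boxes are level.

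Each gene was therefore set beside the 500 expressed genes nearest to it in length. Against them all 10 genes were lower, by a median of -0.84 on the log2 scale. *Map1b* stood lowest, at -2.51 where transcripts of like length had a median of -0.97, a difference of -1.54. *Gap43* followed with a difference of -1.37, since transcripts of like length had 0.49 and it had -0.88. *Map1a* differed by -1.23 and *Stmn4* by -1.09. These 4 lay more than 2-fold below transcripts of like length, and so did 5.74% of all genes.

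The other 6 were closer to their length class. *Mapt* differed from it by -0.85, *Stmn2* by -0.83, *Stmn3* by -0.81, *Stmn1* by -0.69, *Dcx* by -0.55 and *Map2* by -0.49, where the quartiles of all genes were -0.35 and 0.32. So *Stmn1*, level between the libraries as deposited, lay below the transcripts of its own length, which had a median of 0.76, and *Map2*, past 2-fold as deposited, was with *Dcx* among the nearest to their class. With 100 nearest genes in place of 500, *Dcx* differed by -0.45 and *Map2* by -0.48. The length used for *Map2* may be too short, and longer transcripts had lower medians. On this scale the 5 long and the 5 short genes overlapped. *Map1b* and *Map1a* were among the lowest 3 as deposited and against the 500 nearest genes, which for them ran from 8176 to 17043 bases. Against a lowess trend with length *Gap43* differed by -1.377, *Map1b* by -1.373, *Stmn4* by -1.072 and *Map1a* by -1.061. There *Map1b* was not the lowest and *Map1a* not among the lowest 3.

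The neuron content markers were lower in the same way. All 9 were below transcripts of like length, by a median of -0.94, in a range from -0.83 for *Uchl1* to -1.20 for *Syt1*. Past 2-fold below were 4 of the 9 (5.74% of all genes). Of the 10 genes, *Map1b* and *Gap43* and *Map1a* lay below the lowest of these markers and *Map2*, *Dcx*, *Stmn1* and *Stmn3* above the highest. *Map1a* differed from its class by -1.23 with 500 nearest genes and by -1.13 with 100. As deposited, the summed level of the 9 markers was 970.1 FPKM in the library labelled WT and 683 FPKM in that labelled KO, each being above 1 FPKM in both, beside 1939 FPKM in spinal cord, and 5 of the 9 were more than 2-fold lower.

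**Figure D4:**
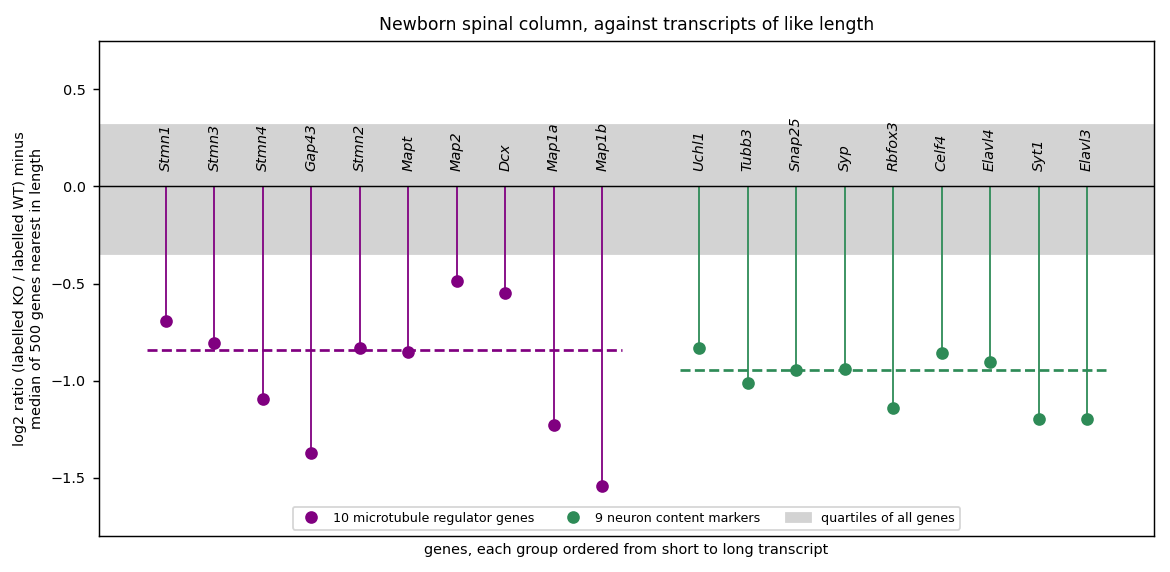
Log2 ratio in newborn spinal column (library labelled KO over library labelled WT) minus the median of the 500 genes nearest in transcript length, for the 10 genes (purple) and 9 neuron content markers (green). Dashed lines are the group medians of -0.84 and -0.94, and the grey band spans the quartiles of all genes. All points lie below the band, *Map1b* lowest at -1.54.

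The 2 spinal column libraries also differed in markers of other tissue. A list of 10 epidermis markers, added after the data were seen, summed to 23.6 FPKM in the library labelled WT and 1411 FPKM in that labelled KO, and 10 of 10 were more than 2-fold higher (9.05% of all genes). The 8 skeletal muscle markers summed to 20493 and 18185 FPKM, with medians of 2885 and 486 FPKM. Of them 2 and 3 were listed at 0. They were divided, 2 being more than 2-fold lower, both of them listed at 0 under the KO label, and 2 more than 2-fold higher. Whether a listed 0 is absence or a failed estimate was not tested. *Ckm*, the muscle creatine kinase gene, had 3407 FPKM under the WT label and was listed at 0 under the KO label, and *Myh8*, a myosin gene, was listed at 0 and had 753 FPKM. The sums were 322 and 308 FPKM for the 9 cartilage and bone markers and 467 and 939.8 FPKM for the 6 blood cell markers found. The 7 glia markers summed to 408 and 364 FPKM, with 6 of 7 lower under the KO label and 1 of them past 2-fold, and against transcripts of like length 5 of 7 were lower, by a median of -0.60. The part of these tissues in the ratios of the 10 genes was not tested.

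Spinal cord was set beside the ES cells labelled WT in a table of its own, and all 10 genes were more than 2-fold higher in cord, where 30.4% of 14390 genes were. None of the 10 was lower, where 35.7% of all genes were more than 2-fold lower, and the median log2 ratio was 5.81 beside -0.26 for all genes. *Stmn4* stood at 234-fold, *Gap43* at 150.2-fold, *Stmn3* at 129.8-fold, *Mapt* at 118-fold and *Map2* at 26.7-fold, whereas *Map1a*, *Map1b*, *Stmn1* and *Stmn2* were between 3.13-fold and 7.98-fold higher. Against day 6 EBs labelled WT 9 of the 10 were more than 2-fold higher in cord (26.1% of all genes) and 0 lower (34.3%), with *Mapt* the most apart at 50.7-fold and *Stmn1* at 0.78-fold. The spinal column labelled WT had lower levels than cord for all 10 genes, by a median log2 ratio of -1.32, and 6 were past 2-fold (16% of all genes), from *Dcx* at 2.44-fold lower to *Stmn4* at 3.68-fold lower.

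Related genes were taken from lists by function, and counted in the same way. Of 30 further genes of lattice and end-binding proteins 28 were found, and in ES cells and at days 2 and 4 none of them was past 2-fold in either direction. At day 6, 4 were more than 2-fold lower (9.93% of all genes) and 1 more than 2-fold higher (10.5%) under the KO label, with *Dclk1*, a relative of *Dcx*, lowest at 6.87 and 1.27 FPKM and *Map7* highest at 9.597 and 20.7 FPKM. In spinal column 13 were past 2-fold lower (8.54% of all genes) and 0 higher, with ratios from *Nav1* at a log2 ratio of -1.78 to *Mapre1*, the EB1 gene, at -0.03. These are long genes too, with a median of 5539 bases, and against transcripts of like length 23 of 26 were lower, by a median of -0.55, and 4 of them past 2-fold (5.74% of all genes).

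Kinases acting on microtubule-associated proteins numbered 15. At day 6, 4 were more than 2-fold lower (9.93% of all genes) and 0 higher (10.5%). *Cdk5r1*, which encodes the activator of the neuronal kinase CDK5, was the lowest at 7.28 and 0.596 FPKM. In spinal column 5 were past 2-fold lower (8.54% of all genes), *Ttbk1* lowest at 4.74 and 1.28 FPKM, while *Cdk5* itself was at 16.0 and 21.3 FPKM. Against transcripts of like length 12 of the 15 were lower, by a median of -0.45, and 2 of them past 2-fold (5.74% of all genes). Of 17 genes of tubulin-modifying enzymes 4 were past 2-fold lower at day 6 (9.93% of all genes), *Atat1*, the alpha-tubulin acetyltransferase, at 36.7 and 6.62 FPKM, and 1 in spinal column (8.54%), *Agtpbp1* at 12.0 and 5.91 FPKM. Against transcripts of like length 13 of 15 of these were lower, by a median of -0.25, and 0 past 2-fold. Genes of microtubule severing and depolymerising proteins were near level, with 1 of 11 past 2-fold lower at day 6 (*Katnal2*, 3.06 and 1.49 FPKM) and 1 in spinal column (*Fign*, 1.03 and 0.380 FPKM), which is close to the shares of all genes.

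The growth cone partners and CRMP genes were a list of 11. Of these, 8 were more than 2-fold lower at day 6 (9.93% of all genes) with a median log2 ratio of -1.74, *Dpysl4* being lowest at 52.1 and 4.04 FPKM and *Nrn1* highest at 2.39 and 3.02 FPKM. In spinal column 5 were past 2-fold lower (8.54%), *Pclo*, with a transcript of 20082 bases, being lowest at 1.51 and 0.262 FPKM. All 11 lay below transcripts of like length, by a median of -1.06, and 7 of them past 2-fold (5.74% of all genes). At day 4 they were divided, with 2 past 2-fold lower (4.46%) and 1 higher (12.1%), *Dpysl4* at 16.8 and 6.95 FPKM and *Basp1* at 24.7 and 51.0 FPKM. The mitotic spindle genes, which build the microtubule arrays of dividing cells, were not past 2-fold in any of the 5 comparisons (0 of 12 in each). At day 4, 11 of 12 were below 0 (median log2 ratio -0.17) and at day 2, 8 of 12 (-0.069), while 10 of 12 were above 0 both at day 6 (0.18) and in spinal column (0.44, and 0.25 against transcripts of like length).

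Across the 11 libraries the log2(FPKM + 1) profiles of the 10 genes correlated with each other by a median Pearson's r of 0.77 over 45 pairs, from 0.28 for *Map1b* with *Stmn2* to 0.98 for *Stmn3* with *Gap43*. The libraries fall into cultures and tissues, so that such values describe the set of libraries and no test is attached. Outside the 10, *Chgb* (r = 0.999), *Lrfn2*, *Cdk5r1*, *Ebf3* and *Tmem169* (r = 0.995) lay closest to their mean profile among 15803 genes. *Chgb*, which encodes a protein of secretory granules, was at 8.70 and 0.420 FPKM in day 6 EBs labelled WT and KO. *Map1b* had another neighbourhood, with *Setbp1* (r = 0.986), *Phlpp1*, *Dmxl2*, *Cep170* and *Ttbk2* (r = 0.945) closest to it. *Setbp1* shared its day 4 maximum within the cultures, with 2.44 FPKM in the library labelled WT, and was at 1.49 and 0.425 FPKM in the libraries labelled WT and KO at day 6.

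The lists of 10415 TAF9B and 8620 RNA POL2 peaks come from 1 library each, and each peak has a score from the peak caller. A TAF9B peak with its midpoint within 500 bp of a transcription start site was present at 3 of the 10 genes, *Map1b*, *Stmn3* and *Stmn4*, and at 30.6% of 12241 genes expressed in day 6 EBs. RNA POL2 had one at 6, *Map1b*, *Map2*, *Mapt*, *Stmn1*, *Stmn2* and *Stmn3*, and at 54.1% of those genes. *Map1a* had a TAF9B peak in an intron, outside the window and 537 bp upstream of an annotated start inside the gene. Peaks of TAF9B farther than 500 bp but within 50 kb were found for 4 of the 10 (*Map1a*, *Map1b*, *Dcx* and *Stmn4*) and for 19.4% of expressed genes.

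*Map1b* was the nearest gene for 5 TAF9B peaks, each within 50 kb of one of its annotated starts. That number was reached or passed by 0.237% of expressed genes. The *Map1b* locus spans 95.1 kb, and no comparison with genes of like span is given. One of the 5 peaks, at chr13:100286581-100286861 with a score of 107, lay upstream of the start and overlapped the RNA POL2 peak there, whose score of 478 was above that of 92.7% of the list. The others were intronic at chr13:100214909-100215067, chr13:100245435-100245709 and chr13:100262973-100263172, or lay 33.1 kb upstream at chr13:100319604-100319804. *Stmn4* had the TAF9B peak with the highest score of the 10 genes, 256, at chr14:66943628-66944122, 19.3 kb upstream of its start and overlapping an RNA POL2 peak. The TAF9B peaks of *Dcx* (chrX:140336950-140337174, score 145) and *Gap43* (chr16:42255825-42256124, score 133) lay in introns, 30.6 and 84.8 kb from the start, and neither gene had an RNA POL2 peak. *Map2*, *Mapt* and *Stmn2* had RNA POL2 peaks and no TAF9B peak, and the TAF9B peaks near *Stmn1* were closer to *Aunip*. The genes with a TAF9B peak at the start site, *Map1b*, *Stmn3* and *Stmn4*, had KO-labelled values 4.33-fold, 12.0-fold and 3.15-fold below the WT-labelled ones at day 6, and the 7 genes without one had values from 1.93-fold (*Mapt*) to 23.7-fold (*Dcx*) below.

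**Figure D5:**
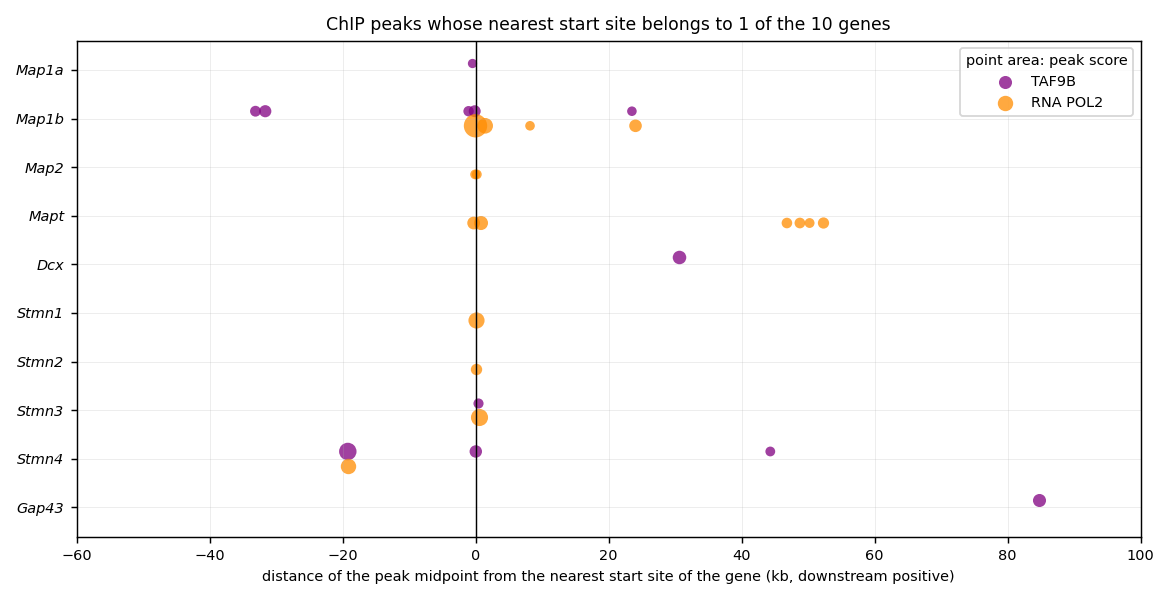
Distance in kb from the nearest annotated start site of the gene to the midpoint of each TAF9B (purple) and RNA POL2 (orange) peak whose nearest gene is 1 of the 10, with downstream positive and the point area growing with the peak score. *Map1b* has 5 TAF9B peaks, spread over both sides of its annotated starts, while *Map2*, *Mapt*, *Stmn1* and *Stmn2* have RNA POL2 points alone.

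The sequences below are the central 200 bases of TAF9B peaks, shown because they hold the *Map1b* start site peak, the outer *Map1b* peak, the peaks of *Dcx* and *Gap43* and the highest peak of *Stmn4*. They are read from mm9 on the strand of the gene, 5′ to 3′. Capitals mark the TATA-like sequence TATAAA and 2 E-boxes of the kind bound by neurogenic bHLH factors, the palindrome CAGCTG, and the sequence CATCTG, which on the other strand reads CAGATG. All motifs were sought on both strands.
Map1b, start site peak, chr13:100286622-100286821, minus strand: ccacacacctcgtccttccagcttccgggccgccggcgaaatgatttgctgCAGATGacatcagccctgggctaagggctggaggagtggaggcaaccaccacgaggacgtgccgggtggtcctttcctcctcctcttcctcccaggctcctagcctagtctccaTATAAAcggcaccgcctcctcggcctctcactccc
Map1b, outer upstream peak, chr13:100319605-100319804, minus strand: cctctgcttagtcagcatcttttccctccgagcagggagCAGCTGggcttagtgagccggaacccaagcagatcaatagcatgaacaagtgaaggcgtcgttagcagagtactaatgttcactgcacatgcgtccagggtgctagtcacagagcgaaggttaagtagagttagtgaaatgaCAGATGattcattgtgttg
Dcx, intron peak, chrX:140336963-140337162, minus strand: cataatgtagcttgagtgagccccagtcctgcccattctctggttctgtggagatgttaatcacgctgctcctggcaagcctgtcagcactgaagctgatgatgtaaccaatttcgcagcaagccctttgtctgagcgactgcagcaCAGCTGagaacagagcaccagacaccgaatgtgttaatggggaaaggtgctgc
Gap43, intron peak, chr16:42255875-42256074, minus strand: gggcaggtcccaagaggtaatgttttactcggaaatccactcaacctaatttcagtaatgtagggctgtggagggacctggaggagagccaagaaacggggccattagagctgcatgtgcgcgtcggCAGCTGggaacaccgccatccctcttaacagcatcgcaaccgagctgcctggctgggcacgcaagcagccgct
Stmn4, upstream peak, chr14:66943776-66943975, plus strand: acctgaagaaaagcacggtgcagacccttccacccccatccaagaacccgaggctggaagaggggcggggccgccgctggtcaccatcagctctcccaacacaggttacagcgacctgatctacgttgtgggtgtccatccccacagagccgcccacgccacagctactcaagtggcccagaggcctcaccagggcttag
TATAAA was present in 4.31% of 10402 windows of this length around TAF9B peaks, CAGCTG in 17.2% and CATCTG in 13.2%, while the right and left parts of the REST repressor site were present in 5.72% (GGACAGC) and in 3.71% of them (TTCAGCA). In the *Map1b* window at the start site TATAAA and the second E-box each occurred once, and the outer *Map1b* window held both E-boxes. The windows of *Dcx* and *Gap43* held CAGCTG once each, and that of the highest *Stmn4* peak held none of the 5 motifs. Of all 12 TAF9B windows of the 10 genes, the 7 not shown included, 5 held at least 1 motif and 7 held none, with TATAAA in 1, CAGCTG in 3 and CATCTG in 3. In RefSeq promoters of build GRCm38.p6, from 250 bases before to 50 after the start, 5 of the 10 genes were listed, and TATAAA was found for *Dcx* and *Map1b*, where 13.6% of 32851 promoters have it. CATCTG was found there for *Map1b* and *Stmn3* (17.2% of all promoters) and GGACAGC for *Map2* (6.56%), and CAGCTG (16.3%) and TTCAGCA (4.70%) for none.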

How the data were processed

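Poly-A RNA-seq was measured in 11 libraries and ChIP in 2 that were used here, TAF9B and RNA POL2. The IgG library was not analysed here. The authors mapped RNA-seq reads with TopHat and computed the deposited FPKM values with Cuffdiff, 1 table per comparison and 6 tables in all. For ChIP, Bowtie placed the reads on mm9 and MACS called the peaks, and its score is the deposited value of each peak. Versions, and whether IgG served as the control for the peak calls, are not given in the sources used here. The tables also hold the authors' own fold changes and p-values, which were not used.

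Every condition has 1 library, so that no test was made and intervals could not be given. A gene was counted as past 2-fold when the ratio of FPKM exceeded 2 and at least 1 of both libraries had more than 1 FPKM, the study's limits on fold and level, without the p-value that it also required. No pseudocount was added to ratios. Counts for the 10 genes stand beside the share of all genes past the same limits. The 10 genes and the lists were chosen with earlier results of these data known. Also named, by rule, are the 5 other genes with the highest Pearson correlation over the 11 libraries with the mean log2(FPKM + 1) profile of the 10 and with *Map1b*, and in each list and comparison the genes with the highest or lowest ratio above 1 FPKM. *Aunip*, the marker genes and *Syt1* were named after their values were seen.

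Symbols were found for 22833 of the 23152 loci. Transcript length is that of the longest protein-coding transcript in GENCODE M1, on the same build as mm9, in place of the RefSeq transcripts first planned, and was found for 21511 loci. Windows of 500 nearest genes in length were taken from genes above 1 FPKM. Start sites are those of the same annotation. A planned comparison of the stathmin proteins was not run. Alternatives were 1 FPKM added, other filters, centring, removal of the length trend, a 1.5-fold limit, 100 nearest genes, and other peak windows and scores. Scripts ran in Python 3.11.15 with pandas 2.3.3, numpy 2.4.6, statsmodels 0.14.6, scipy 1.17.1, pyfaidx 0.9.0.4 and matplotlib 3.10.9.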

Additional observations from a re-analysis of the deposited data

Results flagged for a closer look

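*Stmn4* and *Gap43* had ratios of opposite direction at different stages, with 1 library each, and the difference was not tested. The log2 ratio of *Stmn4*, library labelled KO over library labelled WT, was 1.28 in ES cells, 1.22 at day 2 and 1.31 at day 4, and -1.66 at day 6. That of *Gap43* was 1.15 at day 2 and -4.55 at day 6. With 1 FPKM added to both values, *Stmn4* came to 0.58 in ES cells, 0.89 at day 2 and 0.88 at day 4, and *Gap43* to 0.93 at day 2, none of them past 2-fold.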

How the results depend on the processing

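No paired analysis was possible because every condition has 1 library and the labels carry no replicate numbers, and for the same reason no library could be left out. All 18 ratios of the 10 genes past 2-fold in the libraries labelled KO and WT kept their direction under 72 alternative values. Adding 1 FPKM or using a 1.5-fold limit cannot turn a direction, so that only centring and removal of the length trend could have done so. *Map1a* at day 6 came to -0.78 with 1 FPKM added, within 2-fold, and 8 genes were past it there, not 9. With 1 FPKM added, the median log2 ratio of KO over WT came to -0.10 (ES cells), 0.18 (day 2), -0.028 (day 4, reversed), -1.74 (day 6) and -0.94 (spinal column), the WT-labelled course gave 2.00, the KO-labelled course 0.50 and cord over ES cells 5.09, and 0, 0 and 0 genes were higher in ES cells and at days 2 and 4. Without a filter 1 gene was lower in ES cells and 2 were higher at day 4, and with over 1 FPKM in both libraries 0 were higher in ES cells and 8 lower at day 6, where *Dcx* drops out. Centred on all genes, the medians were -0.15 in ES cells, 0.054 at day 4, -1.88 at day 6, -1.01 in spinal column and 6.07 for cord. With the length trend removed they were -0.14, 0.37, 0.046, -1.90 and -0.81 for ES cells, the 3 EB stages and spinal column. At 1.5-fold, 2 genes were lower and 2 higher at day 4. Shares of all genes under the changed filters and limits are not given here, so that these counts stand without a background. Scaled to the same median FPKM, the courses gave 1.94 and 0.42, and with ES cell values from the cord table the first gave 1.99. The difference from transcripts of like length was -0.88 with 100 nearest genes and -0.81 with a lowess trend. With scores above the median of the list, 3 of the 10 genes had an RNA POL2 peak at the start, and so did 31.0% of expressed genes. Chosen after seeing the data, spinal column without *Dcx* gave -0.88, and minus the median of the neuron content markers 0.086 (reversed). The cause was not tested. Depth is known only approximately and limits *Dcx* most, in ES cells and at day 2.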
